A study of Mus musculus with 10 samples.

Results

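The macrophages of the testis were taken from 2 single-cell libraries of Smarca5 conditional knockout (cKO) mice. They were chosen by their counts of 6 marker genes (Csf1r, Mrc1, F13a1, C1qa, C1qb and Lyz2), whose raw UMIs had to sum to 4 or more. Another 5 genes, those of steroid synthesis (Insl3, Cyp17a1, Star, Cyp11a1 and Hsd3b1), had to stay under 1% of the UMIs. A UMI is a molecular tag that marks 1 captured transcript. Barcodes under 1000 UMIs, under 500 genes or over 20% mitochondrial UMIs had been dropped. This gave 515 of 23460 barcodes. Replicate 1 held 183 of 8710 (2.10%, exact Clopper-Pearson 95% interval 1.81% to 2.42%) and replicate 2 held 332 of 14750 (2.25%, interval 2.02% to 2.50%).

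Both libraries carried the genotype Smarca5 fl/delta; Ddx4-Cre+, in which Cre under the germ-cell gene Ddx4 removes Smarca5, the ATPase of the ISWI chromatin remodelers, from germ cells. The macrophages are therefore not the targeted cells, though they share the floxed and delta alleles of the animal. Tubules were pulled from the tunica, washed to deplete Leydig cells and dissociated, and 15000 cells were loaded on droplet chemistry that counts the 3′ ends of transcripts. The labels do not say whether the 2 libraries came from separate animals, so a p-value below covers these 2 samples only. With the sample as a block, it sets a difference between classes of the same sample against how that difference varied between the 2 samples. This spread is estimated partly from the other genes. No wild-type single-cell library was analysed here, so nothing below compares genotypes. The series also has 8 ATAC-seq libraries of sorted germ cells, cKO and wild type C57BL6, used here only for peaks over promoters.

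Testicular macrophages live in the interstitium among Leydig cells and on the surface of the seminiferous tubules, where peritubular macrophages sit close to the spermatogonia. They depend on CSF1 signalling through Csf1r, clear dying cells and debris, and are known in the mouse for a tolerant state that protects the germ cells from immune attack. In the mouse testis, macrophages with little MHC class II are mostly interstitial and macrophages rich in MHC class II are mostly peritubular, which the labels and files used here cannot resolve by position.

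The libraries held 63605819 UMIs over 987771 listed barcodes in replicate 1 and 115830234 UMIs over 17744 listed barcodes in replicate 2, so the first was deposited unfiltered and the second with no barcode under 500 UMIs. Barcodes that passed the filters had a median of 3515 and 4369.5 UMIs. The filtered sets shared 39 barcode sequences, none of them a macrophage in both. Scrublet called 708 (8.13%) and 1408 (9.55%) of the filtered barcodes as doublets, and these were kept unless stated.

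The label macrophage held for part of the barcodes. In 129 of 183 members of replicate 1 (70.5%, interval 63.3% to 77.0%) and 192 of 332 of replicate 2 (57.8%, interval 52.3% to 63.2%) the 6 markers made up at least 0.5% of all UMIs; this limit was chosen after the data were seen. These 321 marker-rich macrophages had a median of 24 and 37.5 marker UMIs out of a median of 1346 and 1409.5 UMIs in replicates 1 and 2. The other 54 and 140 members were mostly larger barcodes, from 1658 and 1036 UMIs upwards and with up to 27 and 75 marker UMIs, with a median of 6893.5 and 17614 UMIs and a median marker share of 0.173% and 0.0563%. They held 74.2% and 90.9% of all members' UMIs.

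The marker-poor members held as much germ-cell RNA as germ-cell barcodes, together with some macrophage RNA. A set of 10 germ-cell genes took 3.27% and 4.08% of their UMIs, 1.04% and 0.825% in marker-rich macrophages, and 2.72% and 2.98% in germ-cell barcodes. A list of 16 macrophage genes outside the rule took 1.07% and 1.63% of the UMIs of marker-rich macrophages, 0.126% and 0.101% in the marker-poor members, and 0.0349% and 0.0426% in germ-cell barcodes. Without Aif1, which is also counted in germ cells, these shares were 0.990% and 1.52%, 0.0760% and 0.0306%, and 0.0048% and 0.0057%. Scrublet called 42.6% and 27.1% of the marker-poor members as doublets, against 12 of 129 and 25 of 192 of the marker-rich ones. The rule's limit fell among such barcodes: 11 and 45 members had exactly 4 marker UMIs and gave the macrophage list 0.0957% and 0.0922% of UMIs, and 23 and 107 non-members with 3 marker UMIs gave it 0.105% and 0.10%. Another 42 and 75 barcodes with at least 4 marker UMIs stayed out through the steroidogenic limit. The marker-poor members are called by the rule alone below, and levels of macrophages are those of the marker-rich barcodes.

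**Figure D1:**
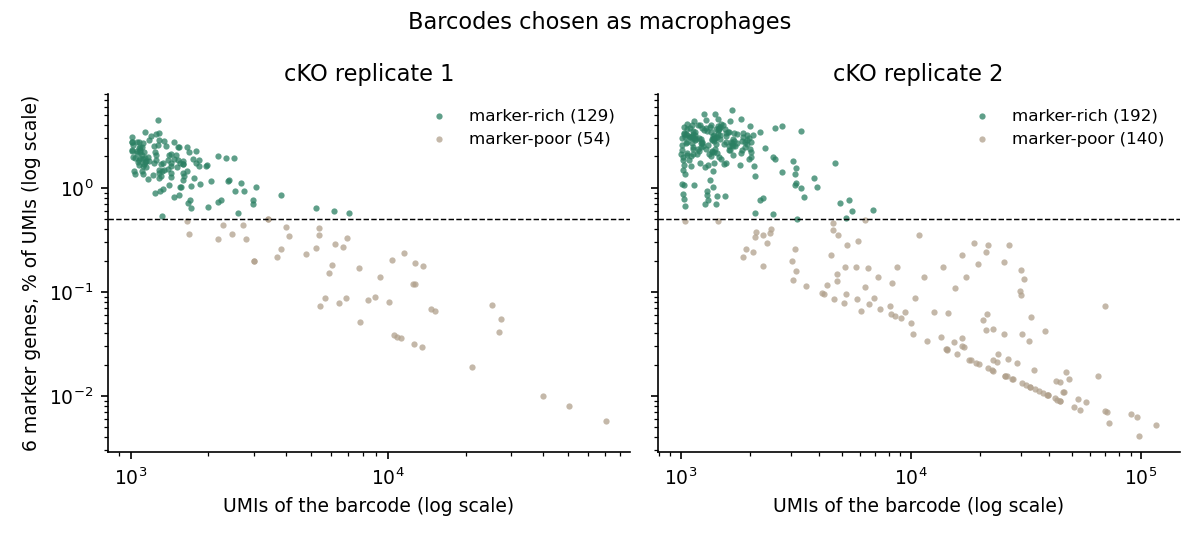
Share of UMIs from the 6 marker genes (vertical axis, %, log scale) against the barcode's total UMIs (horizontal axis, log scale) for every member, by replicate. Green points are the 129 and 192 marker-rich macrophages, brown points the 54 and 140 marker-poor members, and the dashed line is the 0.5% limit; the marker-poor members reach much higher UMI totals.

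All levels below are in CPM, a gene's UMIs per 1000000 UMIs summed over the barcodes of a class in 1 sample. Because the marker UMIs chose the barcodes and every gene was read from the same barcodes, levels against other classes are a description with no test. The 6 marker genes themselves gave the following in marker-rich macrophages of replicates 1 and 2. Csf1r, the CSF1 receptor, stood at 577 and 549 CPM. Mrc1, the mannose receptor CD206, had 1668 and 999 CPM, and F13a1, the A subunit of coagulation factor XIII, 2130 and 940 CPM. The C1q chains C1qa and C1qb were at 2370 and 7041 CPM and at 2447 and 5407 CPM. Lyz2, lysozyme M, was at 6465 and 8191 CPM, against 2.3 and 2.9 CPM in germ-cell barcodes; over all members it was diluted to 1908 and 859 CPM. Mrc1 and F13a1 were thus higher in replicate 1 and the C1q chains higher in replicate 2, with Csf1r nearly level.

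Of the 16 macrophage genes that the rule did not use, all were detected in both samples. A gene is said to lead below when its level in marker-rich macrophages was at least 4 times that in the Leydig, Sertoli, stromal and germ-cell gates in both samples. The stromal gate was rich in germ-cell RNA: the 10 germ-cell genes took 4.09% and 4.69% of its UMIs, against 2.72% and 2.98% in germ-cell barcodes. The Leydig gate left out barcodes that passed a second gate and held 101 and 111 barcodes, against 876 and 1620 set by share alone. Of 13563 genes with a mean of at least 5 CPM 365 led (2.69%), and 12 of the 16 did. Since the rule chose the barcodes, nothing is read from this or the later counts of leading genes, each of which stands beside the same 2.69%. C1qc, the remaining C1q chain, had 2077 CPM in replicate 1 (exact Poisson 95% interval 1885 to 2282) and 5475 CPM in replicate 2 (interval 5224 to 5736), against 0.8 and 1.7 CPM in germ-cell barcodes. Tyrobp, the DAP12 signalling adaptor, had 1048 and 2022 CPM, and Fcer1g, the common Fc receptor gamma chain, 1841 and 3043 CPM. Adgre1, which encodes F4/80, was at 375 and 247 CPM, and Cd68, a lysosomal membrane protein, at 404 and 540 CPM. Of the transcription factors of the lineage, Spi1, which encodes PU.1, was at 163 and 333 CPM and Maf at 1106 and 965 CPM. Aif1, which encodes IBA1, had 769 and 1113 CPM but also 302 and 369 CPM in germ-cell barcodes, so it separated the classes least among those named here. The intervals cover counting error only, as do all intervals here.

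Detection was also counted per barcode, for genes outside the rule. With each barcode thinned to 1000 UMIs, C1qc was found in 86.8% and 96.4% of marker-rich macrophages, against 0.1% and 0.0% of 1000 germ-cell barcodes drawn in each sample. Adgre1 was found in 34.1% and 21.9% of marker-rich macrophages, against 0.4% and 0.3% of germ-cell barcodes. Before thinning, with a median of 1346 and 1409.5 UMIs in macrophages and 3951.5 and 4387 in germ-cell barcodes, Tyrobp had a UMI in 75.2% and 89.6% of macrophages and in 0.30% and 0.70% of germ-cell barcodes. Germ-cell barcodes had by the rule at most 3 marker UMIs, so these shares describe the choice of barcodes and test nothing.

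Most markers of other blood and vessel cells were at or near 0 in marker-rich macrophages, with exceptions. Among 10 monocyte genes, 6 were at 0 in replicate 1 and 7 in replicate 2, including Ly6c2, S100a8, S100a9, Hp and Chil3 in both, and Ccr2, the monocyte chemokine receptor, had 9.6 and 0 CPM. A count of 0 allows up to 3 UMIs, which are 14.4 and 9.25 CPM in these samples. Itga4, the integrin alpha 4 chain, led with 86.5 and 83.2 CPM from 18 and 27 UMIs, and Fn1, fibronectin, had 19.2 and 80.2 CPM, so that the list summed to 125 and 166 CPM, against 72.9 and 60.6 CPM in germ-cell barcodes.

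The dendritic-cell genes Clec9a, Xcr1, Ccr7 and Itgax were at 0 in both samples, Zbtb46, a transcription factor of classical dendritic cells, had 9.6 and 27.7 CPM, and the list of 9 summed to 14.4 and 46.2 CPM. The endothelial genes Pecam1, Cdh5 and Kdr were at 0, but Egfl7 had 14.4 and 61.7 CPM and the list of 8 summed to 57.7 and 80.2 CPM. The T and NK cell genes Cd3e, Cd3g and Nkg7, the B cell gene Ms4a1, the mast cell gene Cpa3 and the red-cell genes of the list were at 0. Others were detected: the B cell gene Cd79b and the T cell gene Cd3d in both samples, and Kit in replicate 1 only. The lymphocyte list of 10 summed to 28.8 and 30.8 CPM, against 31.1 and 40.8 CPM in germ-cell barcodes. The list of 7 mast cell and granulocyte genes summed to 9.6 and 0 CPM. All 8 cycling genes were detected, summing to 279 and 197 CPM, against 693 and 757 CPM in germ-cell barcodes; of these Mki67 had 14.4 and 12.3 CPM and Top2a 130 and 74.0 CPM. The part of free RNA and doublets in these levels was not tested.

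RNA of the neighbouring testis cells was present at lower levels. Prm2, the protamine of elongating spermatids, had 2009 and 2574 CPM in marker-rich macrophages, against 4802 and 6315 CPM in germ-cell barcodes and 5774 CPM in nearly empty droplets of replicate 1 (10 to 100 UMIs). Ldhc, the germ-cell lactate dehydrogenase, had 1423 and 1323 CPM in macrophages, against 6098 and 7154 CPM in germ-cell barcodes. Insl3, the Leydig-cell hormone, had 308 and 262 CPM, against 6862 and 13545 CPM in barcodes with at least 1% steroidogenic UMIs, called Leydig barcodes below. Whether these transcripts were inside the macrophages, free in the droplet or from a second cell was not tested. In barcodes thinned to 1000 UMIs, the 10% of macrophages with most Prm2 held 59.5% and 71.9% of its UMIs, with up to 32 and 80 in 1 barcode.

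**Figure D2:**
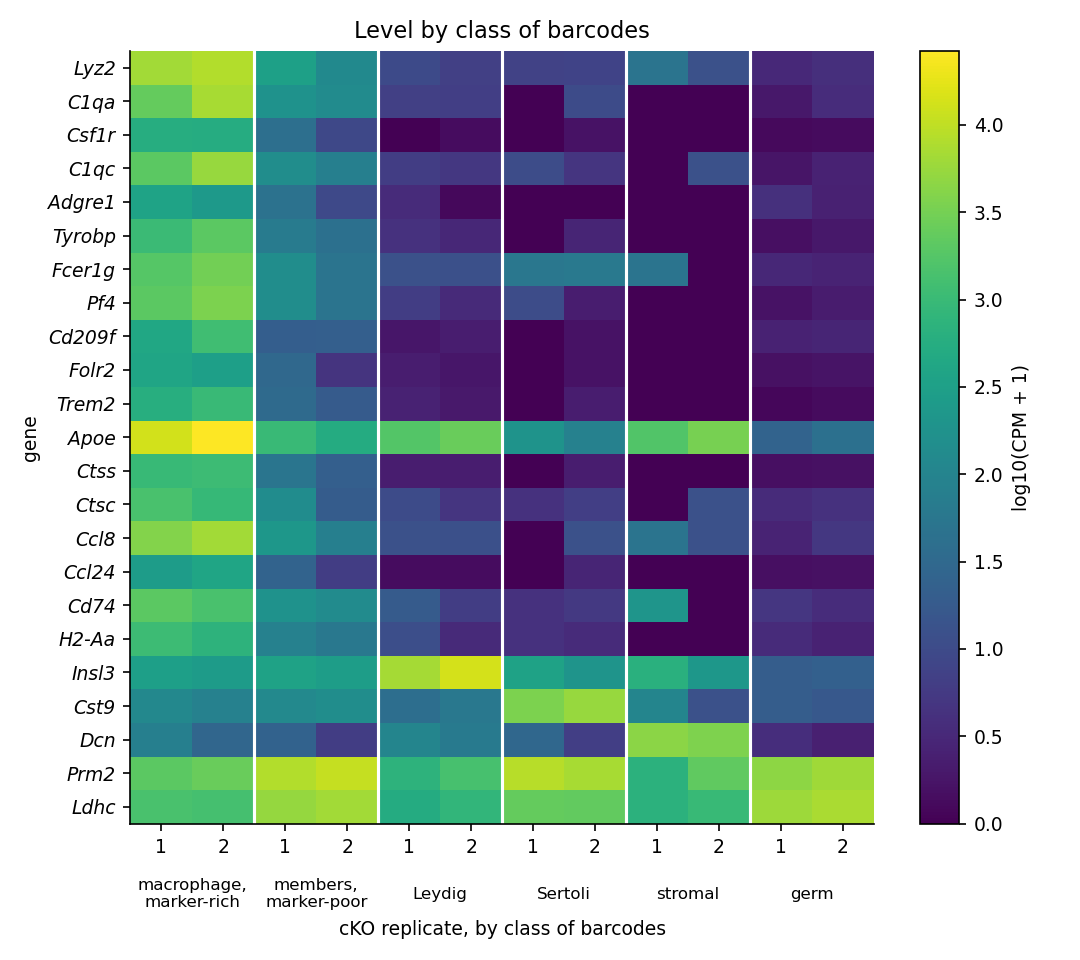
Level of 23 named genes as log10(CPM + 1) (colour scale) in 6 classes of barcodes, each with cKO replicates 1 and 2 as columns; Leydig, Sertoli and stromal classes are set by the share of UMIs from their markers. The macrophage genes are bright in the marker-rich columns and fainter in the marker-poor ones, while Prm2 and Ldhc run the other way.

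The genes that mark tissue-resident macrophages were the next group. All 12 were detected in both samples, and 9 of the 11 that passed the filter on low levels led. Pf4, platelet factor 4, a chemokine also made by macrophages, had 2072 and 3493 CPM. Selenop, the selenium transport protein, had 3620 and 3169 CPM. Folr2, a folate receptor of resident macrophages, had 399 and 318 CPM, Cbr2, a carbonyl reductase, 418 and 805 CPM, and Stab1, a scavenger receptor, 466 and 515 CPM. Cd209f, a C-type lectin of the DC-SIGN family, was at 428 CPM (interval 344 to 526) and 1153 CPM (interval 1039 to 1276), so the samples lay apart by more than counting error. Lyve1 and Timd4, which mark resident macrophages in other tissues, were low: Lyve1 had 1 UMI in each sample (4.8 and 3.1 CPM) and Timd4 had 62.5 and 37.0 CPM.

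Among 20 chemokine and cytokine genes 12 passed the filter and 8 led. Ccl8, a CC chemokine made by resident macrophages, reached 3947 CPM (interval 3681 to 4226) and 6539 CPM (interval 6263 to 6823). At 1000 UMIs it was found in 69.8% and 88.5% of marker-rich macrophages, against 0.2% and 1.1% of germ-cell barcodes. The eosinophil chemokine Ccl24 had 274 and 395 CPM, and of the monocyte chemokines Ccl12 had 168 and 253 CPM, Ccl2 159 and 61.7 CPM and Ccl7 120 and 117 CPM. Of the inflammatory cytokines Il6 was at 0 in both samples and Il1b had 9.6 and 9.2 CPM. Tnf differed, with 178 CPM from 37 UMIs in replicate 1 and 0 UMIs in replicate 2, where 3 UMIs are 9.25 CPM. Il10 had 14.4 and 0 CPM. Igf1, a growth factor of tissue macrophages, had 707 and 543 CPM.

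Little of the ligands of Csf1r was counted. Csf1 had 9.6 and 6.2 CPM in marker-rich macrophages, from 2 UMIs in each sample, and 31.0 and 20.0 CPM in Leydig barcodes. The alternative ligand Il34 had 0 and 3.1 CPM in macrophages, from 0 and 1 UMI, and Csf2 was at 0.

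Genes of lipid handling, lysosomes and iron followed. Apoe, the lipid carrier apolipoprotein E, was at 13402 CPM (interval 12909 to 13909) and 26593 CPM (interval 26035 to 27160) in marker-rich macrophages, against 1732 and 2623 CPM in Leydig barcodes. Trem2, a lipid-sensing receptor, had 586 and 1002 CPM, the cholesterol exporter Abca1 913 and 743 CPM, the phospholipid transfer protein Pltp 529 and 558 CPM and lipoprotein lipase, Lpl, 337 and 302 CPM. Of 12 lipid genes, 9 passed the filter and 5 led.

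All 18 lysosomal genes were detected, 17 of them at 100 CPM or more in each sample, and 9 led. The cathepsins Ctsb and Ctsc had 2134 and 2038 CPM and 1399 and 925 CPM, Ctsd had 558 and 1098 CPM, and the legumain gene Lgmn had 1245 and 1141 CPM. In the iron group, 5 of 10 genes led. The ferritin chains stood apart between samples: Fth1 had 7561 and 16996 CPM and Ftl1 4023 and 10004 CPM. Hmox1, which breaks down haem, had 236 and 182 CPM, the iron exporter Slc40a1 356 and 244 CPM, and Trf, transferrin, 303 and 398 CPM. The prostaglandin-degrading enzyme Hpgd had 836 and 481 CPM.

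The receptors that bind antibody and dying cells were present at moderate levels. Fcgr2b, the inhibitory Fc receptor, had 163 and 342 CPM and Fcgr3 264 and 379 CPM. Mertk, the efferocytosis receptor for phosphatidylserine bridges, had 298 and 123 CPM, and its ligand Gas6 293 and 444 CPM, with 229 and 153 CPM in Leydig barcodes. Of 15 efferocytosis genes 13 passed the filter and 4 led, and of 11 Fc-receptor genes 10 passed and 6 led. In the complement list, 3 of the 8 genes that passed the filter led, and C3ar1, the C3a receptor, had 149 and 160 CPM. Nr3c1, the glucocorticoid receptor, had 168 and 89.4 CPM.

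Of the 365 leading genes, 359 were not markers of the rule and 63 were on one of the lists. Taking all members in place of the marker-rich ones, 38 of 13205 genes led (0.288%). With Leydig, Sertoli and stromal barcodes set by a share of UMIs, 32 of 13690 led (0.234%), all of them among the 365, and the lists fell to 6 macrophage, 2 resident, 4 lysosomal, 1 chemokine, 1 lipid and 0 iron genes. Of the 6 markers of the rule 5 led against these classes, all but Csf1r. The stromal class then held only 19965 UMIs in replicate 1, where a class at 0 was set to 3 counts, which are 150.3 CPM. Outside the lists, Wfdc17 had 2697 and 2836 CPM in marker-rich macrophages, against at most 5.0 and 1.4 CPM in another gated class, and Dab2 had 1288 and 980 CPM, against at most 5.8 and 4.5 CPM. Wfdc17 encodes a whey-acidic-protein family protein of myeloid cells, and Dab2 an endocytic adaptor. The membrane protein gene Ms4a7 had 567 and 1135 CPM, against at most 0.4 and 0.7 CPM. The 365 became 322 when every class, and not only a class at 0, was set to at least 3 counts.

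Promoters of these genes were searched for GAGGAAGT, a purine-rich sequence of the kind bound by PU.1, on either strand. RefSeq promoters of GRCm38.p6, 250 bases before to 50 after a gene's start, were matched for 281 of the 365 leading genes. The letters occurred in 28 of 281 (9.96%), in 362 of 10475 ranked genes (3.46%) and in 997 of all 27025 genes (3.69%). A gene counted when any of its promoters held them. Counted per promoter, they occurred in 1052 of all 32851 (3.20%). Below are 4 windows from leading genes whose levels are given above, chosen after their values were seen and written 5′ to 3′ in the gene's direction, with the match in capitals; all 4 hold it on the opposite strand as ACTTCCTC. In C1qc (chr4:136893062-136893149, minus strand) the match begins 195 bases before the start, in Selenop (chr15:3270546-3270633, plus strand) 181, in Pf4 (chr5:90772385-90772434, plus strand) 10 and in Ctsc (chr7:88277894-88277981, plus strand) 151. A match is a description of the letters and not a bound site.
C1qc: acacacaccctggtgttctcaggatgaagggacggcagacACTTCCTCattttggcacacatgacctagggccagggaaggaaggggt
Selenop: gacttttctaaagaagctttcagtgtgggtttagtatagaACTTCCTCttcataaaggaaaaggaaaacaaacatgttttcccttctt
Pf4: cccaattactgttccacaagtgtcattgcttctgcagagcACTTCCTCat
Ctsc: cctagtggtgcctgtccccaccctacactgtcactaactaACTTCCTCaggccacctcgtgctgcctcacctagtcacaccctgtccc

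The germ-cell ATAC libraries gave a view of the same promoters outside macrophages. In 4C-sorted spermatocytes a peak touched a promoter of 57.3% and 58.7% of the 281 matched leading genes in cKO replicates 1 and 2. In wild type the leading genes had 53.0% and 53.7%. Ranked genes had 82.2% and 82.8% in cKO and 80.9% and 81.2% in wild type. Leading genes were chosen partly by low levels in germ-cell barcodes, so shares below those of ranked genes describe this choice and test nothing. In cKIT+ spermatogonia the leading genes had 81.5% and 74.4% in cKO and 52.0% and 84.0% in wild type, and the ranked genes 85.0% and 84.1% in cKO and 75.7% and 84.1% in wild type. For the leading genes, the wild-type libraries of cKIT+ cells lay further from each other than either lay from a cKO library. The promoters of Ccl8 and Cd209f had a peak in 0 of the 8 libraries, those of C1qc and Pf4 in 3 and that of Apoe in 6.

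Macrophages differed among themselves more in some genes than in others. In barcodes thinned to 1000 UMIs, the ratio of variance to mean over marker-rich macrophages had a median of 1.10 and 1.13 over 588 genes with a mean of at least 0.2 UMIs. Ccl8 had 8.71 and 9.19, the spermatid genes Prm2 7.36 and 29.9 and Tnp2 5.66 and 8.73, Cd74, the MHC class II invariant chain, 5.28 and 7.45, Apoe 4.67 and 5.99 and H2-Aa, an MHC class II chain, 3.68 and 6.34. Ccl8 was at 0 UMIs in 40 of 129 barcodes and 23 of 192, had a median of 3 and 4 UMIs and reached 49 and 45 UMIs, so the 10% of barcodes with most of it held 41.5% and 37.7% of its UMIs. Apoe had a median of 14 and 31 UMIs per barcode. Cd209f was at 0 in 80.6% and 58.9% of barcodes. Cxcl13, the B cell chemokine, came from 1 barcode in each sample, with 5 and 50 UMIs.

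MHC class II was the axis along which the macrophages were split. H2-Aa, H2-Ab1 and H2-Eb1 encode chains that present peptides to CD4 T cells, and Cd74 the invariant chain that guards their groove until peptides are loaded. In marker-rich macrophages H2-Aa had 1077 and 712 CPM, H2-Ab1 635 and 580 CPM, H2-Eb1 827 and 718 CPM and Cd74 2081 and 1421 CPM. A barcode with at least 0.3% of UMIs from these 4 genes was called high. Among marker-rich macrophages 52 of 129 (40.3%, interval 31.8% to 49.3%) and 49 of 192 (25.5%, interval 19.5% to 32.3%) were high, against 8 of 6760 (0.118%) and 6 of 11079 (0.0542%) germ-cell barcodes. Over all members the shares were 57 of 183 (31.1%) and 65 of 332 (19.6%), 25.4% ± 8.18 (SD, n = 2). The distribution had no gap at the limit, since 17 and 19 marker-rich barcodes lay between 0.2% and 0.4%. No UMI of the 4 genes was found in 40 of 129 (31.0%) and 78 of 192 (40.6%) marker-rich barcodes.

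**Figure D3:**
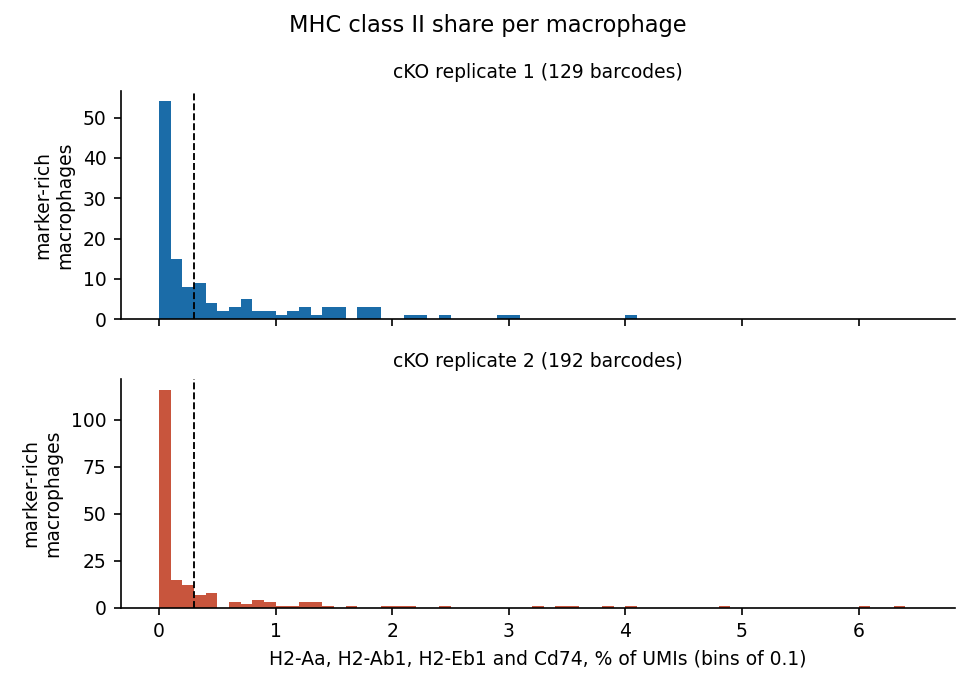
Number of marker-rich macrophages (vertical axis) by the percent of their UMIs from the 4 MHC class II genes (horizontal axis, bins of 0.1), in cKO replicate 1 (top) and replicate 2 (bottom); the dashed line is the 0.3% limit. Most barcodes lie under the limit, with 52 of 129 and 49 of 192 at or over it and a tail to the right.

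Summed UMIs of high and low macrophages of each sample were compared with edgeR's quasi-likelihood test with the sample as a block, with Benjamini-Hochberg adjustment across every gene in the fit. In marker-rich macrophages 16 of 2189 genes were higher in the high class (0.731%) and 10 were lower (0.457%), and all 26 moved the same way in both samples. The higher genes were Cxcl9, Cd52, H2-DMb1, AW112010, Fnbp1, Psme1, Ccl12, Cd86, Ccl8, Trf, Npm1, H2-K1, Ctss, Ptma, H2-D1 and Gm42418. The lower ones were Sparc, Cabs1, Cox6b2, Macrod2, Mllt10, Lcn2, Dbil5, Prm2, Pebp1 and Tnp1. All 26 were named because they passed, after their values were seen. Of the higher genes, Cxcl9, Cd52, H2-DMb1, AW112010 and Fnbp1 passed the test's filter on low counts through the high class alone. Of the lower genes, Sparc, Cabs1, Cox6b2 and Macrod2 passed it through the low class alone. The calls of these genes are given as a description.

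Chemokine genes were among those that rose. Ccl8 had 5558 and 11710 CPM in high macrophages of replicates 1 and 2 and 3024 and 5277 CPM in low ones, higher in the high class in both samples, by 1.08 ± 0.14 on the log2 scale (SE, edgeR adjusted p = 5.73e-11). It was detected in 43 of 52 and 44 of 49 high barcodes and in 51 of 77 and 131 of 143 low ones. Ccl12 was higher by 1.18 on the log2 scale, and Cxcl9, an interferon-induced T cell chemokine, had 49 and 9 UMIs in high barcodes and 0 in low ones. Against 3 counts in the low class Cxcl9 was at least 28.5-fold higher in replicate 1 and at least 12.3-fold higher in replicate 2, but it came from 5 and 3 barcodes, and 1 barcode held 34 of the 49 UMIs. With 0 UMIs in the low class, Cxcl9 passed the test's filter on low counts through the high class alone. Its call is therefore given as a description.

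Antigen presentation genes outside the split rose with it. H2-DMb1, a chain of the chaperone that loads peptides on MHC class II, had 119 and 236 CPM in high and 22.7 and 38.4 CPM in low macrophages. It was higher by 2.56 ± 0.67 (log2, SE). H2-DMb1 passed the test's filter on low counts through the high class alone, so its call is given as a description. The partner chain H2-DMa had a log2 difference of 1.46 ± 0.43 that missed the threshold (edgeR adjusted p = 0.0547). Cd86, a T cell costimulator, was higher by 1.14 ± 0.30 (edgeR adjusted p = 0.018). Of the antigen presentation list 3 of 9 genes were tested and 2 were called higher, 1 of them H2-DMb1. Over all genes tested 0.731% were called higher. The median log2 difference of the list was 1.46, against 0.01 over all genes tested. Ctss, the cathepsin that cuts the invariant chain, had 1320 and 1399 CPM in high and 741 and 1001 CPM in low macrophages, higher by 0.70 ± 0.18 (edgeR adjusted p = 0.017). The MHC class I chain H2-K1 had 2033 and 1823 CPM in high and 1172 and 1085 CPM in low macrophages, higher by 0.82 ± 0.17 (edgeR adjusted p = 4.77e-04). The class I chain H2-D1 and the proteasome activator Psme1 were higher by 0.62 ± 0.17 and 1.33 ± 0.33 (edgeR adjusted p = 0.0373 and 0.00866). Cd52, a surface peptide of leukocytes, had 172 and 236 CPM in high and 7.6 and 53.7 CPM in low macrophages, higher by 2.70 ± 0.61 (log2, SE). Cd52 too passed the filter through the high class alone, so its call is given as a description.

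Few genes of the other lists passed the test, as few did of all genes (0.731% higher and 0.457% lower, with a median of 0.01). Of 14 tested genes of the macrophage list 1 was called higher, all 14 had a positive difference and the median was 0.43; over all genes 1104 of 2189 were positive. The resident list had 0 of 9 called, a median of -0.04 and 4 positive. Among its genes Cd209f had a difference of -0.04 and Folr2 of -0.27. Csf1r had 554 and 676 CPM in high and 590 and 518 CPM in low macrophages. The lysosomal list had 1 of 17 called and a median of 0.31, the chemokine list 2 of 9 and 0.67, the iron list 1 of 8 (Trf, higher by 1.08 ± 0.24, edgeR adjusted p = 0.00253) and 0.15, and the lipid list 0 of 7 and 0.14. The Fc-receptor, efferocytosis, complement, interferon and immediate-early lists had 0 called of 5, 8, 5, 3 and 8, numbers too small to show a difference from the share called over all genes. In the same order, their medians were 0.75, 0.23, 0.36, 0.42 and 0.74, with 5, 5, 4, 2 and 8 genes positive. Igf1 was at 0.68 ± 0.21 (edgeR adjusted p = 0.0747).

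Spermatid genes were among the 10 that fell. Prm2 had 1439 and 1163 CPM in high and 2336 and 2918 CPM in low macrophages, lower by a log2 difference of -0.95 ± 0.17 (edgeR adjusted p = 1.01e-05). In low macrophages 1 barcode held 62 of its 309 UMIs in replicate 1 and 340 of its 761 UMIs in replicate 2. The spermatid list had 2 of 6 called lower and a median of -0.61, where 0.457% of all genes were called lower and their median was 0.01. Sparc, a matrix protein, was lower at -2.44 ± 0.51 and Macrod2 at -1.80 ± 0.38 (log2, SE). Both passed the test's filter on low counts through the low class alone, so their calls are given as a description. Within the low class 1 barcode held 13 of 33 and 16 of 61 Sparc UMIs in replicates 1 and 2. For Macrod2 1 barcode held 6 of 34 and 29 of 98 UMIs. Germ-cell genes took 0.869% and 0.467% of UMIs in high and 1.13% and 0.912% in low macrophages, and Scrublet called 5.77% and 2.04% of high and 11.7% and 16.8% of low ones. The marker genes took 1.62% and 2.84% of UMIs in high and 1.53% and 2.18% in low macrophages, which had a median of 1313 and 1226 UMIs in high and 1398 and 1469 in low barcodes. Over all members Macrod2 was level, with a log2 difference of 0.01, and with members of at least 10 marker UMIs Prm2 was at 0.0707. The part of doublets, germ-cell RNA and macrophage content in these calls was not tested. Without the replicate block edgeR called 0 genes in either direction, with 44 at an unadjusted p under 0.05, and DESeq2 with the block called 2 higher and 0 lower, with 28 under 0.05.

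**Figure D4:**
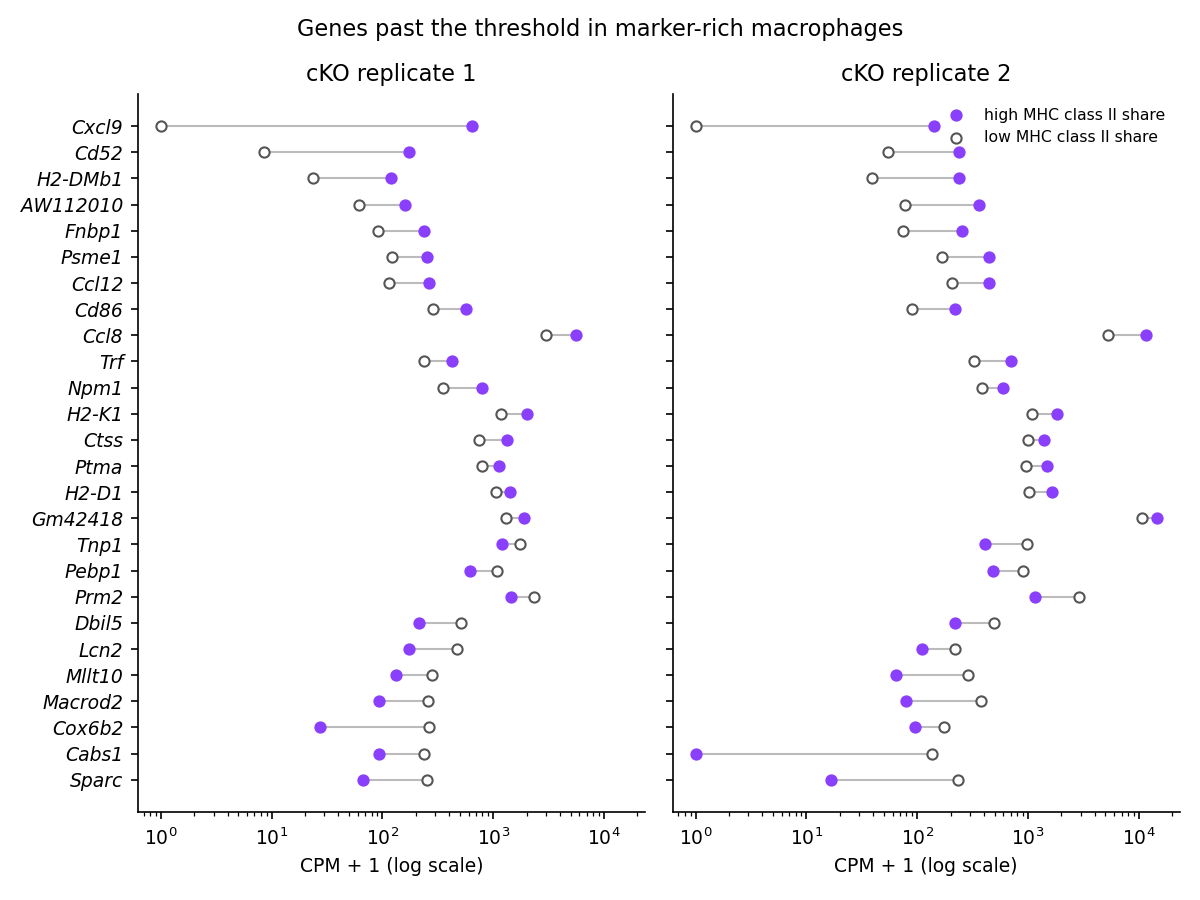
Level of the 26 called genes as CPM + 1 (horizontal axis, log scale) in marker-rich macrophages with a high (filled) or low (open) MHC class II share, for cKO replicate 1 (left) and replicate 2 (right). The upper 16 genes are higher and the lower 10 lower in the high class in both samples.

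Over all 515 members the same comparison called 1078 of 7605 genes higher (14.2%) and 1094 lower (14.4%), of which 22 were among the 26 with the same sign. Marker-poor members gave 16.4% and 63.6% of the UMIs of the high class and 81.5% and 92.3% of the low class, so that the sums differ in their share of germ-cell RNA. The 10 largest higher differences were those of Cxcl9 (8.57 ± 0.79 on the log2 scale, SE; 7.31 in replicate 1 alone and 4.79 in replicate 2 alone), the class I gene H2-Q7 (4.86; 3.88 and 3.46 alone), the lectin gene Mgl2 (4.78) and Cd52 (3.94), and of Scimp, Lsp1, AW112010, Gm13710, Arhgap22 and Snx20. Cxcl9 had only 1 and 0 UMIs in the low class of replicates 1 and 2. The 10 largest lower ones were 4930440I19Rik, Ubqln5, Sirpb1c, Fancd2os, 1700025D23Rik, Gm36677, 1700029E06Rik, 1700061E18Rik, Gm50302 and 4930443O20Rik. All of these lower genes had 0 UMIs in the high class of both samples. These lower genes passed the test's filter on low counts through the low class alone. The 10 largest higher ones passed it through the high class alone. Both sets are therefore given as a description. Without the replicate block 1 was called higher and 0 lower, with 1663 at an unadjusted p under 0.05.

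The replicates differed in immediate-early genes, which are switched on within minutes of stimulation and also during tissue dissociation. With 1 sample each there is no test, and the genes were singled out after their values were seen. In marker-rich macrophages all 9 that were measured well enough were higher in replicate 1, 6 of them at least 4-fold, with a median log2 ratio of 3.11. Over all genes 4484 of 7698 were higher in replicate 1 (58.2%), 87 at least 4-fold (1.13%), with a median of 0.14.

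Fos had 548 CPM in replicate 1 (interval 452 to 658) and 37.0 CPM in replicate 2 (interval 19.1 to 64.6). In replicates 1 and 2, Fosb had 216 and 12.3 CPM, Egr1 221 and 18.5 CPM, Atf3 130 and 3.1 CPM and Jun 332 and 49.3 CPM. The heat-shock gene Hspa1a was nearly level at 43.3 and 40.1 CPM. Leydig barcodes had 6 of 6 measured genes higher in replicate 1, with a median of 2.36 beside 0.11 over all genes, of which 57.5% were higher, and Sertoli barcodes 3 of 5 with a median of 0.39. Other genes higher in replicate 1 macrophages were the zinc-finger gene Klf4 (293 and 37.0 CPM), Btg2 (187 and 24.7 CPM) and Zfp36 (197 and 27.7 CPM). Genes lower in replicate 1 included Cd209g, with 72.1 and 308 CPM, and Gm42418, a locus that overlaps ribosomal RNA, with 1529 and 11456 CPM. The mitochondrial share was also higher in replicate 1. Its median was 3.67% and 0.912% in marker-rich macrophages and 8.64% and 2.24% in Leydig barcodes of replicates 1 and 2. It was 5.70% and 1.37% in Sertoli barcodes, where the immediate-early genes differed least of these 3 classes. The part of the mitochondrial share in the difference was not tested. Sample and library cannot be told apart here.

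**Figure D5:**
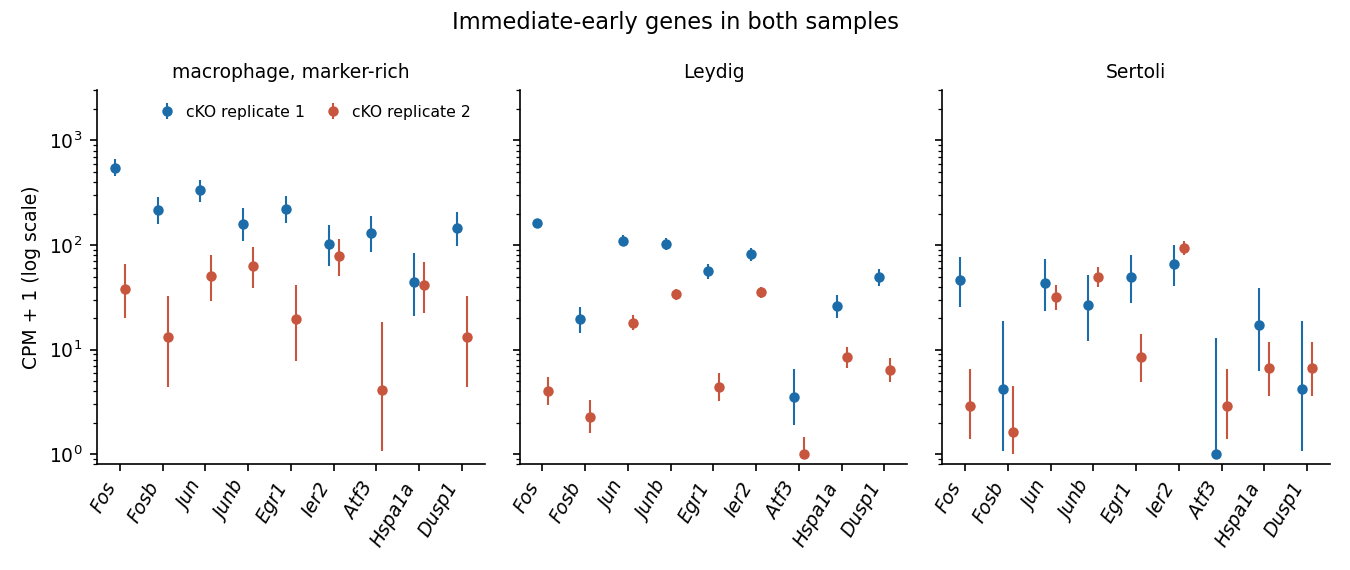
Level of 9 immediate-early and stress genes as CPM + 1 (vertical axis, log scale) in marker-rich macrophages, Leydig and Sertoli barcodes of cKO replicate 1 (blue) and replicate 2 (red), with exact Poisson 95% intervals of counting error. In macrophages every gene is higher in replicate 1, most by a wide margin and Hspa1a and Ier2 within their intervals.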

How the data were processed

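Deposited count matrices and peak lists were used. The single-cell matrices hold UMI counts per gene and barcode as the authors deposited them, made with Cell Ranger 7.1.0 for replicate 1 and 9.0.1 for replicate 2 per the file headers; the submitters' processing notes name the mm10 build. The ATAC peak lists hold, per the file headers and columns, the authors' score, fold enrichment, and −log10 p and q values per broad peak; only peak positions were used, and a promoter counted when a peak overlapped it by at least 1 base. The submitters' processing notes also name Seurat 4.1.0, cutadapt, Bowtie2 and MACS2.

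The single-cell samples are 2 cKO libraries. The members, gene lists and limits were chosen with earlier results of these data known. Macrophages were found by the rule in the report. The Sertoli, stromal and germ-cell gates asked for at least 4 UMIs of their own markers, and the Leydig gate for at least 1% steroidogenic UMIs. Non-members that passed more than 1 of the macrophage, Leydig, Sertoli and stromal gates (840 and 1639) went to no gated class. Germ-cell barcodes passed none of these gates. Leydig, Sertoli and stromal barcodes were also set by a share of UMIs of at least 1%, 0.5% and 0.5%, with under 4 macrophage marker UMIs. These shares define the Leydig and Sertoli barcodes whose levels are printed. Doublets were called per library with Scrublet in scanpy 1.11.5 at an expected 0.8% per 1000 barcodes and kept, and left out as an alternative. A gene led when it was at least 4 times as high as in every other class in both samples with a mean of 5 CPM. The split was tested in edgeR 4.0.16 on summed counts with filterByExpr, trimmed-mean scaling and the sample as a block, since both classes came from the same library; the code was tested on simulated data. DESeq2 1.42.0 was an alternative. Named genes were those of the lists, the 10 largest called differences in each direction over all members, and the 20 highest ratios to the next class at 100 CPM or more. Replicates were compared for genes with a mean of at least 20 CPM and a pseudocount of 5 CPM. Sequences came from RefSeq (GRCm38.p6), matched by symbol. Intervals cover counting error only.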

Additional observations from a re-analysis of the deposited data

How the results depend on the processing

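Over all members, 1078 genes were higher and 1094 lower in macrophages with a high MHC class II share. DESeq2 gave 395 and 570. Without a filter 434 were higher and 1336 lower, and without the replicate block 1 and 0. With the limit at 0.1% of UMIs 1649 were higher and 1792 lower, and at 1% 407 and 1548. The fit without a filter and the 1% limit tilted the calls to the lower side. Members thinned to 1000 UMIs gave 177 and 226, and at least 10 marker UMIs 297 and 362. Marker-rich members, chosen after seeing the data, gave 16 and 10; within them DESeq2 gave 2 and 0, no filter 7 and 5, no replicate block 0 and 0, and thinning 4 and 3. The 0 and 1 without the block stand beside 1663 genes at an unadjusted p under 0.05 in all members and 44 in marker-rich ones. Leaving out doublets gave 762 and 1158, and at most 10% mitochondrial UMIs 1150 and 1103. Counts without a replicate could not be computed, since no residual degrees of freedom are left.

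Of the named genes, Macrod2 reversed most often, but from a value near 0 over all members (0.01 ± 0.35, log2, SE), where any small negative value is a reversal. Its log2 difference was 0.01 over all members, -0.19 with DESeq2, -0.30 without a filter, -1.84 at the 1% limit, -0.52 with at least 10 marker UMIs, -0.12 at 10% mitochondrial UMIs, 0.97 without replicate 1 and -1.62 without replicate 2. In marker-rich members it was -1.80, with DESeq2 -1.77, without a filter -1.88, without the replicate block -1.84 and thinned -1.85. Npm1 reversed to -0.20 at the 1% limit. With at least 10 marker UMIs Tnp1 reversed to 0.49, Prm2 to 0.0707 and Cabs1 to 0.0893. Mllt10, also near 0 over all members (-0.02 ± 0.34), reversed to 0.67 at the 0.1% limit and 0.19 without doublets. Leaving out replicate 1 and then replicate 2, with the other sample's value alone, Mllt10 was at 0.85 and -1.24, Lcn2 at -2.44 and 0.0325 and Sparc at -3.31 and 0.57. The cause was not tested.

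The share of barcodes that were macrophages, 2.18% ± 0.106 (SD, n = 2), was 1.67% with at least 10 marker UMIs, 1.93% without doublets and 1.39% for marker-rich members, and 2.10% to 2.25% without a replicate. The share with high MHC class II, 25.4%, was 39.8% at the 0.1% limit and 10.7% at 1%, and 19.6% to 31.1% without a replicate. The 38 leading genes became 90 at 2 times, 18 at 8 times, 102 with at least 10 marker UMIs, 365 for marker-rich members and 40 to 153 without a replicate. Against those 365, classes set by share gave 32, and 3 counts as the least in every class gave 322. Depth limits genes under about 3 UMIs per sample.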
